A study of Mus musculus with 51 samples.

Results

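A pair of wild type (WT) mouse embryonic stem (ES) cell lines were carried through the same Bmp4-driven cardiac mesoderm differentiation in this series, and their transcriptomes on days 1 and 2 were set side by side. The first line, labelled F1G4, supplied the WT time course and was the parent of the *Eomes*, *T* and *Eomes*/*T* double knockout (KO) lines; the labels give no strain for it beyond its name, and 2 RNA samples for each day. The second line, labelled 129S/SvEvxC57BL/6, carried conditional *Smad4* alleles with the first exon between loxP sites and served as the WT of the *Smad4* KO; the labels give 1 RNA sample for each day. The study's text describes RNA-seq of this line and its KO as averaged over replicates, which the labels do not show; the deposited values had the fragment step of a single sample, as given below. Neither line had been exposed to Cre or to Cas9 as far as the sources state, and the *Smad4* KO derived from the second line was expanded from single clones. All cells were kept on fibroblast feeders, separated from them before aggregation, and then given 20 ng/ml Bmp4 on fibronectin. Of the 51 samples of the series 18 were RNA, and 6 of those belonged to this comparison.

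The members were the autosomal genes with an FPKM above 1 in at least 1 of the lines on the day in question, after each pair of columns had been scaled to a median ratio of 1. FPKM is a fragment count corrected for transcript length and for sequencing depth. There were 10779 members on day 1, 10694 on day 2, 11098 on either day and 10375 on both, of 24512 genes named in every table. The values nearest to the limit of FPKM 1 were 1.00 inside and 0.9998 outside on day 1 (*4930599N23Rik* and *Relt*), and 1.00 and 0.9999 on day 2 (*1700086O06Rik* and *Snord35b*). A gene was called higher or lower when the log2 ratio of the 129S/SvEvxC57BL/6 line to F1G4 lay beyond 1 or −1, which is 2-fold. The 129S/SvEvxC57BL/6 line had 1 sample a day and so no measured spread of its own, the lines came from separately processed tables, and line, *Smad4* allele design, culture and processing run cannot be told apart. No test between lines was run, and every ratio below is a description of these samples.

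ES cells leave naive pluripotency through a formative state, in which *Otx2*, *Dnmt3a* and *Fgf5* are switched on, before they respond to Bmp4, Wnt and Nodal by activating primitive streak genes. *Wnt3* and *Nodal* are the ligands that spread the streak program, and the T-box factors *Eomes* and *T* specify the nascent mesoderm. Lines of different genetic background are known to pass through these steps at different speeds and to differ at imprinted loci and in repeated gene families.

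The genes with line differences that persisted through all stages included loci that differed in the CpG content of their start sites. The reference sequence of the 250 bases before the start of 4 of them is shown because their levels separated the lines in every column, with CpG dinucleotides, the sites of vertebrate DNA methylation, in capitals. *Phf19*, encoding a Polycomb accessory protein, and *Olig2*, encoding a neural bHLH factor, had CpG-rich starts (chr2:34913977-34914226, minus strand, and chr16:91225300-91225549, plus strand). *Akr1e1*, an aldo-keto reductase gene, and *Gbp2b*, an interferon-inducible GTPase gene, had 6 and 1 CpG at their starts (chr13:4609165-4609414, minus strand, and chr3:142594597-142594846, plus strand). All sequences are from RefSeq (GRCm38.p6, the C57BL/6J reference) and not from these cell lines.
Phf19: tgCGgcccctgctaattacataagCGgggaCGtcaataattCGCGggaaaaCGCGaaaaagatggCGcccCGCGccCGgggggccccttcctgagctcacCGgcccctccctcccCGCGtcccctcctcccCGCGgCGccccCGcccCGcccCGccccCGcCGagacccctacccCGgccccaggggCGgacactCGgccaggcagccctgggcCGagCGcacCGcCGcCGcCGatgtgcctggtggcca
Olig2: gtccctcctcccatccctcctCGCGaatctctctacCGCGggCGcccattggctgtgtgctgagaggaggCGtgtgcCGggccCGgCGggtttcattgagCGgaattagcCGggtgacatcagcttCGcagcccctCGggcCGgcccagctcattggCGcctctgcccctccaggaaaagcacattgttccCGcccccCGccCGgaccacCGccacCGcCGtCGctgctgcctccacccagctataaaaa
Akr1e1: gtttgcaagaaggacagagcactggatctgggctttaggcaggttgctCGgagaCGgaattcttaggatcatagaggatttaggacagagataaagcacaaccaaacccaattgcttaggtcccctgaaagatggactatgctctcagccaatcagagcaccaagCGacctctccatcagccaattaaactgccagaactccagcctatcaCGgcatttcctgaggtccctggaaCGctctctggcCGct
Gbp2b: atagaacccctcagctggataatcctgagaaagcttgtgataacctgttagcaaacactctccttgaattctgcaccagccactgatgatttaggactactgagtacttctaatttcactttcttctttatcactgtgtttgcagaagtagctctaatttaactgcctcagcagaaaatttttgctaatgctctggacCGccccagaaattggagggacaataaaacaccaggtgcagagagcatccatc
The windows held 31 CpG at *Phf19* and 22 at *Olig2*, against a median of 6 over the 32851 RefSeq starts. As many CpG as at *Phf19* were found in 5.19% of all starts, and as many as at *Olig2* in 14.8%; the *Akr1e1* start was thus at the median and the *Gbp2b* start below it.

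The depth of each sample could be read from the deposited values. In genes with a single RefSeq transcript, FPKM multiplied by the transcript length in kilobases fell on whole multiples of 1 step, the value of 1 fragment, and the step gave 23.6 M fragments for the 129S/SvEvxC57BL/6 line on day 1 and 35.2 M on day 2. The F1G4 columns showed 2 steps each, which gave 25.7 and 23.4 M fragments for the samples of day 1 and 27.6 and 24.9 M for those of day 2. At the median transcript length an FPKM of 1 corresponded to 61.3 fragments in the 129S/SvEvxC57BL/6 sample and 127 in F1G4 on day 1, and to 93.1 and 138 on day 2. At these counts, counting error was small against a 2-fold difference in most called genes. The exact 95% binomial interval of the ratio covers counting error only. It excluded equal levels in 666 of the 682 called genes with 1 transcript on day 1 and in 290 of 297 on day 2. These genes were called from the same counts, so this outcome was largely set by their selection. A listed 0 allows up to 3 fragments, an FPKM of 0.0490 in the 129S/SvEvxC57BL/6 sample of day 1 and 0.0322 in that of day 2 at the median length. Called genes listed at 0 numbered 15 in that line and 6 in F1G4 on day 1, and 8 and 2 on day 2, and no fold is given for them.

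The same arithmetic separated the 2 F1G4 samples of day 2. That column recurs in 4 tables with slightly different weights of its samples, from which the level of each sample was solved for 10535 of the 10694 members (98.5%), leaving out genes that share reads with copies. The solution was found after the data were seen. With the samples scaled to each other, the F1G4 samples differed from each other by over 2-fold in 620 genes (5.89%), whereas the 129S/SvEvxC57BL/6 line differed from the F1G4 pooled value in 494 of the same genes (4.69%). The median absolute log2 ratio was 0.27 within F1G4 and 0.23 between the lines, the latter against a value that averages 2 samples. The 2 comparisons are therefore not alike. Against single F1G4 samples the line was beyond 2-fold in 5.95% of genes with the one and 7.78% with the other. The first share was nearly the same as the 5.89% within F1G4 and the second was above it. The gene sets differed slightly (10486 and 10621 genes against 10535), depths differed, and F1G4 gave a single pair. Levels of both F1G4 samples are given below wherever they could be solved.

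**Figure D1:**
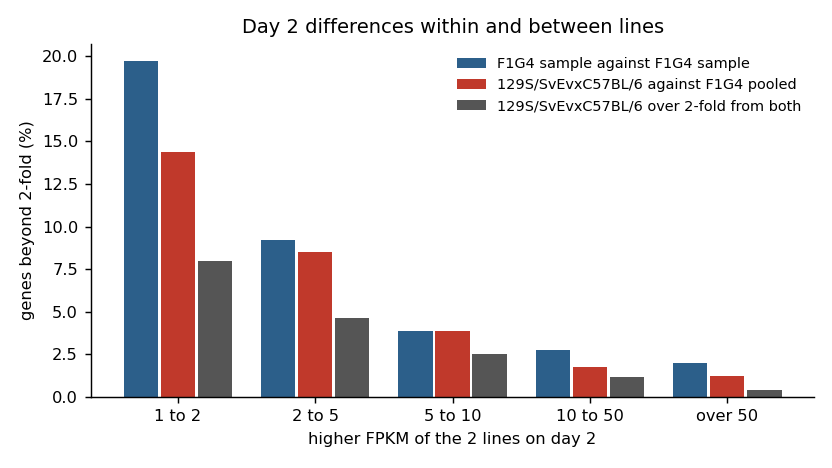
Percentage of day 2 members beyond 2-fold, by the higher FPKM of the lines: blue bars compare the 2 F1G4 samples, red bars the 129S/SvEvxC57BL/6 line with the F1G4 pooled value, and grey bars count genes over 2-fold from both F1G4 samples in the same direction. The blue bars fall from 19.7% at FPKM 1 to 2 to 1.99% above 50, the red bars from 14.4% to 1.23% and the grey bars from 7.98% to 0.410%.

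On day 1, 1184 members (11%) were called, 779 of them higher in the 129S/SvEvxC57BL/6 line (7.23%) and 405 lower (3.76%). The called share fell with level, from 26.4% of members at FPKM 1 to 2 to 5.11% above FPKM 50. The excess of higher calls depended on the scale: converted to TPM, which sets both columns to the same total, the median of all members moved by −0.17 and the calls became 556 higher and 606 lower. The samples of day 1 could be separated only for genes of few fragments. Among 1029 such genes, chosen on F1G4 alone, the lines were beyond 2-fold in 43.2% and the F1G4 samples in 35.2%; on day 2 the same choice gave 29.3% and 39.6% of 960 genes. Every gene list below was chosen with earlier results of these data known. List counts stand against shares over all members of 7.23% higher and 3.76% lower on day 1, and 1.49% and 3.45% on day 2. The share also depends on the level of the genes in a list.

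Pluripotency genes were split on day 1. Of 18 members of the naive list 5 were higher and 1 lower, with a median log2 ratio of 0.36 against 0.01 over all members. *Nanog*, a core pluripotency factor, stood at FPKM 67.8 in the 129S/SvEvxC57BL/6 line and 16.1 in F1G4 (log2 ratio 2.07). In F1G4 *Nanog* rose to 120 on day 2. *Dppa3*, a maternal factor that marks naive cells, was at 202 against 80.3 (1.33), and *Klf2* and *Tbx3* were also higher. The pluripotency markers *Esrrb* (3.02 against 5.22, −0.79) and *Zfp42* (49.5 against 46.0, 0.11) were not called. *Pou5f1*, expressed in naive and formative cells alike, was at 857 and 755, so the line difference did not extend to it. *Fgf4*, the ligand that drives exit from the naive state, was the 1 lower member, at 9.54 against 40.8 (−2.10).

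The list of core and formative pluripotency genes moved to the lower side. None of its 18 members was higher and 6 were lower, with a median of −0.68. *Dnmt3a*, the de novo DNA methyltransferase, was at 16.6 against 53.1 (−1.67), *Otx2*, a factor of the formative epiblast, at 23.8 against 54.1 (−1.19), and *Fgf5* at 3.53 against 8.38 (−1.25). *Sall1*, *Pou3f1* and *Foxd3* completed the set with log2 ratios from −1.37 to −1.02. The list of FGF and ERK feedback genes shared *Fgf4* and *Fgf5* with these sets and had 1 of 17 members higher and 4 lower (median −0.41).

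Primitive streak genes were higher in the 129S/SvEvxC57BL/6 line on day 1, in 8 of 12 members, with none lower and a median of 1.36. *Nodal* was at 26.6 against 9.91 (1.43), *Wnt3* at 8.14 against 2.47 (1.72) and *Wnt8a* at 5.04 against 0.847 (2.57). Fragment counts behind *Wnt3* were 576 and 376, and those behind *Wnt8a* 174 and 63. *T*, a direct Wnt target, had 90 fragments in the 129S/SvEvxC57BL/6 sample and 29 and 48 in the F1G4 samples, which is an FPKM of 1.94 against 0.551 and 1.00, so the line difference lay outside the range of the F1G4 samples. *Cdx2*, a posterior homeobox gene, was resolved likewise, at 1.42 against 0.670 and 0.399. *Eomes* was at 2.44 and 2.38 in the lines, and the T-box pair thus differed in its ratio on this day.

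Signaling lists differed among themselves on day 1. Of 13 BMP targets and feedback genes 5 were higher and none lower, among them *Id3*, an inhibitor of bHLH factors, at 113 against 52.6 (1.11) and *Bmp7*, a BMP ligand, at 1.52 against 0.625 and 0.315 in the F1G4 samples. *Id1*, the standard readout of BMP signaling, was at 80.1 and 79.7. In the Nodal pathway 3 of 16 were higher and none was lower, the higher ones including the ligand *Nodal* and the feedback inhibitor *Lefty1* (6.54 against 2.29). WNT targets and modulators had 2 of 14 higher and 1 lower, with a median of −0.09: *Dkk1*, a secreted Wnt inhibitor, had 67 fragments against 2, and *Lef1*, a Wnt effector, was at 2.76 against 8.51 (−1.62).

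Lists of other fates and of the culture state were also examined on day 1, when 7.23% of all members were higher and 3.76% lower. Of 4 neural members 1 was higher (*Pax6*, 1.06 against 0.481) and of 7 endoderm members none was called. Epithelial and mesenchymal genes had 4 of 17 higher, including the simple keratins *Krt8* (103 against 37.6) and *Krt19* (23.8 against 3.95), and extracellular matrix genes none of 19. Immediate early genes had 4 of 15 higher and p53 targets 3 of 16 higher and 1 lower; *Perp*, an apoptosis effector and desmosome protein, was at 61.3 against 8.06 (2.93). Glycolysis and hypoxia genes had 1 of 24 higher, the glucose transporter *Slc2a3* (174 against 39.8, 2.13), and 1 lower, *Pfkp*. Neither the 21 Atf4 targets nor the 20 cholesterol synthesis genes contained a call, and the 1 measured gene of the 2-cell-like list was not called.

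Some smooth muscle and fibroblast genes were also higher on day 1. *Tagln*, an actin-binding protein of smooth muscle and fibroblasts, was at 176 against 19.3 (3.19), *Acta2* at 10.3 against 1.91 and *Col5a2* at 1.03 against 0.170 and 0.375 in the F1G4 samples; they made up the 3 of 7 higher members of the fibroblast list. Of the 9 defining feeder markers 7 were also higher in the 129S/SvEvxC57BL/6 line on day 1, 6 of them by over 2-fold or from a listed 0, among them *Col1a1*, *Col1a2*, *Postn*, *Dcn* and *Twist2*. The marker from a listed 0 was *Prrx1*, at only 0.00893 in the 129S/SvEvxC57BL/6 line. *Thy1* alone was above FPKM 1, at 1.85 against 2.97, and the other 8 summed to 1.96 against 0.651. These 8 were not members, so the shares over all members do not apply to them. Calls were frequent at low levels, with 26.4% of members called at FPKM 1 to 2. On day 2, 3 of the 9 were higher, none by over 2-fold, and the 8 summed to 1.01 against 1.19. Over all 9 the sums were 3.81 and 3.62 on day 1 and 2.28 and 3.15 on day 2. Their part in the *Tagln*, *Acta2* and *Col5a2* results was not tested. *Col1a1* and *Col1a2* stayed at or below 0.576 in all 4 columns. In bulk samples fewer cells of a type and less RNA per cell cannot be told apart.

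Markers of the labelled state were present in both lines. The 5 pluripotency markers summed to an FPKM of 1062 in the 129S/SvEvxC57BL/6 line and 926 in F1G4 on day 1, and to 872 and 904 on day 2. The 6 nascent mesoderm markers summed to 14.9 and 6.82 on day 1 and to 91.1 and 87.8 on day 2. *Smad4*, the shared cofactor of BMP and Nodal signaling whose alleles were conditional in the second line, was at 35.1 and 30.9 on day 1 and 39.6 and 33.4 on day 2. The *Smad4* KO itself had 40.7 on day 1 and 47.6 on day 2, scaled to F1G4 day 2. The level of this gene therefore cannot show whether its alleles were intact. The endoderm markers *Sox17*, *Sox7*, *Gata6* and *Foxa2* stayed below FPKM 1 in both lines on days 1 and 2.

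The position of the called genes in the F1G4 time course was examined with columns that the day 1 ratio did not use. Of the 779 genes higher in the 129S/SvEvxC57BL/6 line on day 1, 44.4% were over 2-fold higher in F1G4 on day 2 than in F1G4 ES cells and 5.78% over 2-fold lower, against 13.5% and 6.62% of all members. Of the 405 lower genes, 7.41% were over 2-fold higher on day 2 than in ES cells and 30.9% over 2-fold lower. Genes that F1G4 gained between ES cells and day 2 were thus more frequent among the higher genes of day 1, and genes it lost more frequent among the lower. On day 2 the same reading from F1G4 days 1 to 3 gave 29.6% gained and 17.0% lost among the higher genes, 24.9% and 21.95% among the lower, and 11.8% and 7.37% among all members.

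**Figure D2:**
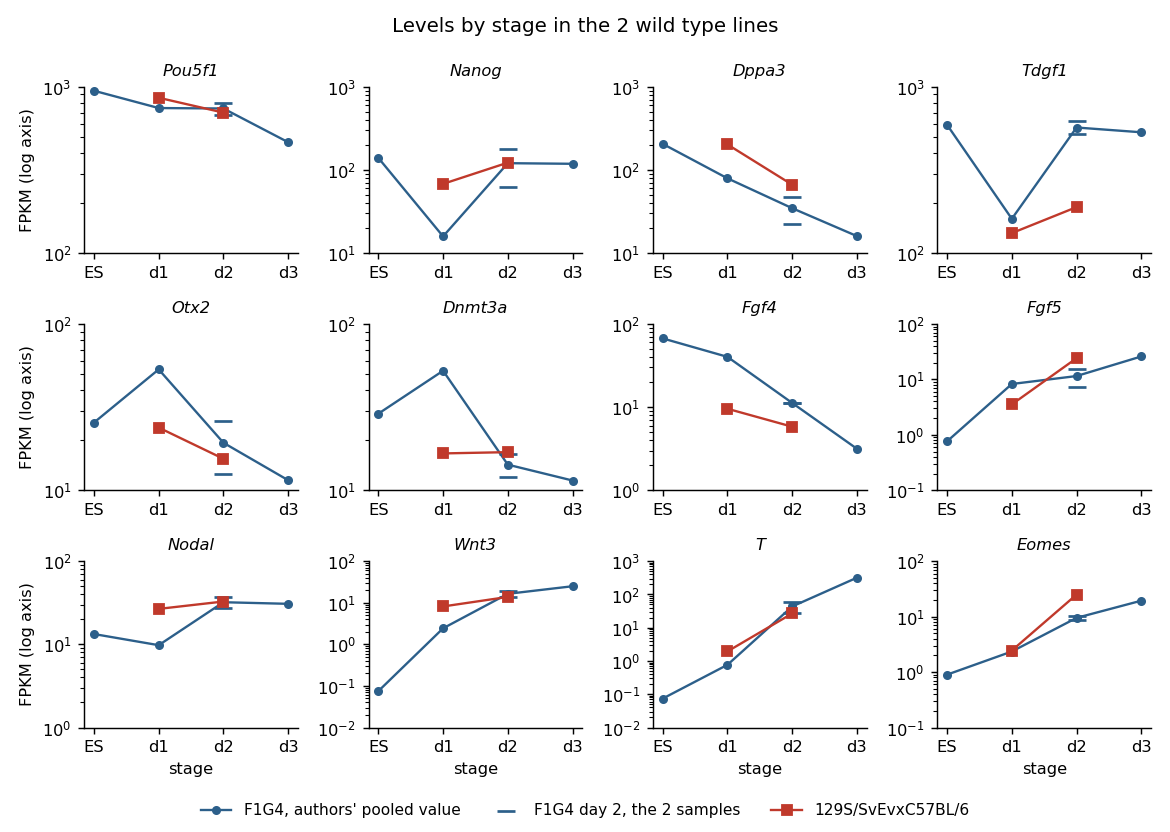
FPKM on a log axis of 12 genes in F1G4 from ES cells to day 3 (blue circles, the authors' pooled values; blue dashes, the 2 samples of day 2) and in the 129S/SvEvxC57BL/6 line on days 1 and 2 (red squares), all columns scaled to F1G4 day 2. On day 1 *Nanog*, *Nodal* and *Wnt3* lie above the F1G4 line and *Otx2*, *Dnmt3a* and *Fgf4* below it, while on day 2 the red squares of *Nanog*, *Nodal*, *Otx2* and *Wnt3* fall between the F1G4 samples.

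On day 2, 528 members (4.94%) were called, 159 higher (1.49%) and 369 lower (3.45%). The called share again fell with level, from 14.8% at FPKM 1 to 2 to 1.56% above 50. Of the 494 called genes that could be solved, 475 lay outside the range of both F1G4 samples, but only 86 higher genes (0.816% of 10535) and 196 lower genes (1.86%) were over 2-fold from each of them, 282 in all (2.68%). Taken against single F1G4 samples, the line was beyond 2-fold in 5.95% of genes with the one and 7.78% with the other.

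Of the 8 streak genes called higher on day 1, 4 lay within the range of the F1G4 samples on day 2, 2 above both and 2 below both. *Nodal* stood at 32.8 against 36.7 and 27.5 in the F1G4 samples, *Wnt3* at 13.8 against 13.8 and 19.07, both within the range, and *T* at 26.9 against 28.1 and 59.0, below it. Outside the day 1 streak calls, *Nanog* was at 122 against 179 and 62.4 and *Fgf8*, a streak FGF ligand, at 20.0 against 24.2 and 3.10. Variation between the F1G4 samples exceeded the line difference for each of these 5 genes.

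The streak list nevertheless held 3 higher and 1 lower of 15 members on day 2, with a median of 0.03. *Eomes* was at 25.0 against 10.4 and 8.56 (1.40 from the pooled value), over 2-fold above both F1G4 samples. *Wnt8a* was at 38.2 against 19.5 and 15.9, and *Gsc*, the organizer homeobox gene, at 1.15 against 0.494 and 0.308. *Hand1*, a bHLH factor of extra-embryonic and lateral mesoderm, was lower at 3.53 against 9.84 and 7.48. *Eomes* and *T* therefore lay on opposite sides in the 129S/SvEvxC57BL/6 line: *Eomes* above both F1G4 samples and *T* below both, the latter within 2-fold of the nearer one.

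Among signaling genes *Tdgf1*, the Nodal co-receptor, was below both F1G4 samples by over 2-fold on day 2, at 189 against 621 and 517 (−1.59). It was the 1 lower gene of 16 in the Nodal pathway and the 1 lower of 18 in the core and formative list. *Fgf5* was the 1 higher gene of the latter list (24.2 against 15.7 and 7.30). BMP targets had 3 lower of 13, with *Msx1* at 1.97 against 4.09 and 6.79, *Id1* at 16.2 against 23.8 and 80.4, and *Hand1* as above. The F1G4 samples were themselves over 2-fold apart in *Id1*. WNT genes had 1 higher of 16 (*Frzb*, a secreted Wnt antagonist, 1.20 against 0.286 and 0.0138) and 1 lower (*Dkk1*, 0.782 against 2.34 and 2.103), and the FGF list 2 higher of 18, *Fgf5* and the receptor *Fgfr2*.

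In several lists with calls on day 2 the F1G4 samples also differed from each other. Over all members 1.49% were higher and 3.45% lower on that day. Immediate early genes had 6 lower of 18, 4 of them over 2-fold below both F1G4 samples, and 5 of the list were over 2-fold apart between those samples; *Egr1* was at 0.560 against 6.84 and 1.13, and *Cyr61*, a matricellular YAP target, at 17.2 against 60.5 and 34.9. Glycolysis and hypoxia genes had 3 lower of 24, among them *Bnip3*, a mitophagy receptor, at 12.5 against 76.7 and 8.56, and 9 of the list were over 2-fold apart between the F1G4 samples. The interferon and antigen processing list had 5 lower of 25, 3 of them over 2-fold below both (on day 1, 4 higher and 1 lower of 23), with *Gbp2* at 4.52 against 8.35 and 15.1. The naive list had 1 lower of 15 (*Dppa2*, 5.15 against 7.44 and 19.3) and 6 genes apart within F1G4. In the fibroblast list 1 of 6 was higher and 1 lower, of which *Col5a2* stayed above both samples (1.67 against 0.285 and 0.316).

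Of the germline genes, some lay below both F1G4 samples on day 2. These genes are silenced by promoter methylation when cells leave pluripotency. Of 14 members 6 were lower and none higher (median −0.85), 4 of the 6 were over 2-fold below both F1G4 samples, and none of the 14 differed by 2-fold between those samples. *Sycp1*, a synaptonemal complex gene, was at 0.267 against 1.53 and 0.913, and *Hormad1*, a meiotic chromosome axis gene, at 0.503 against 3.15 and 1.61. *Mael*, a piRNA factor, stood at 1.13 against 3.49 and 3.17 and *Ddx4*, the germ cell RNA helicase, at 4.46 against 10.4 and 9.01. On day 1 the list had 1 of 15 higher (*Tex19.1*, 18.5 against 8.85) and 3 lower, with *Sycp1* at 0.691 against 3.06 and *Hormad1* at 4.02 against 10.7 lower already.

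Other lists had few calls on day 2. Neural genes had 2 higher of 3 (*Gbx2* and *Irx3*, at FPKM 1.47 and 2.00 in the 129S/SvEvxC57BL/6 line), extracellular matrix 1 lower of 18, and the endoderm (6 members), Atf4 (21), cholesterol (20), p53 (16), epithelial and mesenchymal (17) and 2-cell-like (1) lists none. Imprinted genes had 4 higher and 1 lower of 32, against 8 higher and 3 lower of 34 on day 1. *Peg12*, a paternally expressed gene of the Prader-Willi region, was higher on both days, at 2.67 against 0.486 and 0.308 on day 1 and 2.12 against 0.275 and 0.503 on day 2. *H19*, the maternally expressed RNA of the *Igf2* locus, was at 209 against 20.3 on day 1 (3.37) and 210 against 104 and 154 on day 2, so that its level was nearly the same on both days in 1 line and far apart in the other. *Peg3*, a paternally expressed zinc finger gene, was at 18.9 against 70.2 on day 1 and 44.5 against 50.9 and 53.1 on day 2.

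Short RNAs differed between the lines on day 1 and within F1G4 on both days. Of 52 small nucleolar RNA genes 28 were higher and 7 lower on day 1 (median 1.20), and of 17 other short RNA genes 12 were higher and 3 lower (median 1.29). *Rmrp*, the RNA of RNase MRP, was at 20543 against 8393, and *Snora74a* at 2720 against 793. Among 30 small nucleolar RNAs of few fragments whose F1G4 samples could be resolved on day 1, 23 were over 2-fold apart within F1G4, such as *Snora44* with 65 and 7 fragments and *Snord35a* with 42 and 0. On day 2 *Rmrp* was at 7673 against 6581 and 8847 and *Snora74a* at 782 against 1438 and 573, both within the F1G4 range. The small nucleolar RNAs had 6 higher and 10 lower of 45 on day 2, and 29 of them were over 2-fold apart between the F1G4 samples. The other short RNAs had 2 higher and 3 lower of 14. High levels of *Snord87*, *AF357425* and *Snora23* were not confined to the 129S/SvEvxC57BL/6 line, which had 152.6, 129.8 and 10.55 on day 1, scaled to F1G4 day 2. In that order, the KO lines derived from F1G4 had 70.7 to 210, 52.4 to 288 and 6.15 to 78.7. The F1G4 WT columns had 17.4 to 23.9, 16.7 to 23.4 and 0.937 to 4.48.

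A trend with transcript length accompanied the day 1 differences. The median log2 ratio fell from 0.34 in the tenth of members with the shortest transcripts (median 953 bases) to −0.28 in the tenth with the longest (8174 bases), and the share called higher from 15.9% to 2.98%. On day 2 it ran from −0.02 to 0.10. Ribosomal protein genes, which have short transcripts, had a median of 0.33 on day 1, with 3 of 80 higher and 2 lower, and of −0.12 on day 2, with 1 higher and 2 lower. Replication-dependent histone genes had 6 higher and 4 lower of 66 on day 1 (median 0.14) and 4 and 5 of 65 on day 2 (0.22), and ribosomal protein pseudogenes 2 higher and 1 lower of 5 on day 1 and 1 and 1 of 4 on day 2. The part of length in the list results was not tested; with the trends of GC content and length subtracted, the day 1 log2 ratio was 1.93 for *Nanog*, −1.44 for *Dnmt3a*, 1.20 for *Nodal* and 1.61 for *Wnt3*, each still beyond the 2-fold call, while 24 of the 151 named genes called on day 1 were no longer called.

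Genes called in the same direction on both days were the nearest to a repeat within the comparison, since the days are separate samples. There were 175 of 10375 (1.69%), 67 higher (0.646%) and 108 lower (1.04%), and 21 were called in opposite directions (0.202%). The shared higher genes were 8.60% of those called higher on day 1 and 42.1% of those on day 2; the shared lower genes were 26.7% and 29.3%. Among the genes called higher on day 1 that were members on day 2, the median day 2 ratio was 0.15, and among those called lower it was −0.65.

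**Figure D3:**
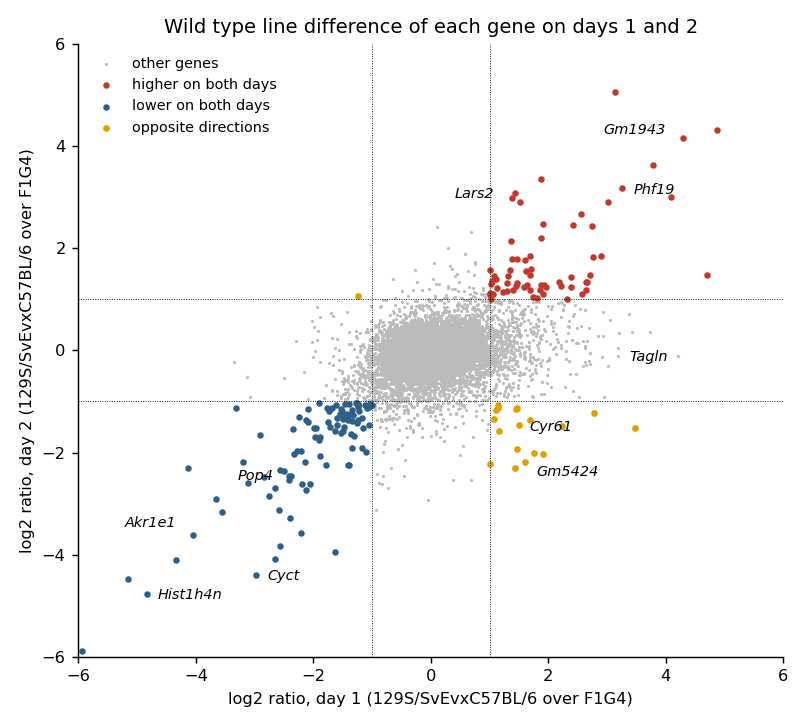
Log2 ratio of the 129S/SvEvxC57BL/6 line to F1G4 on day 1 (x axis) and day 2 (y axis) for the members on both days, with dotted lines at 2-fold; 14 genes listed at 0 in a column and 4 beyond the axes are not drawn. The 67 genes higher on both days (red) and the 108 lower (blue) lie in the outer corners, and the 21 in opposite directions (yellow) lie mostly at the lower right.

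The genes with the largest differences on both days were of varied function. *Phf19* was at 18.5 against 1.92 on day 1 and 11.0 against 1.26 and 1.18 on day 2 (3.26 and 3.17 from the pooled values), with 1570 fragments against 353 and 1436 against 239. *Kcnj3*, a potassium channel gene, was at 11.8 against 4.77 and then 16.1 against 5.61 and 6.08. *Tfpi*, an inhibitor of coagulation, was at 43.1 against 16.8 and 28.2 against 5.14 and 7.63. *Lars2*, the mitochondrial leucyl-tRNA synthetase, was at 14.0 against 5.37 and 54.0 against 5.61 and 7.96, and the noncoding RNA *AI506816* at 11.3 against 1.39 and 13.6 against 1.06 and 2.57. In each of these 5 genes the 129S/SvEvxC57BL/6 value of day 2 was over 2-fold above both F1G4 samples. For *Lars2*, *Tfpi* and *AI506816* this did not hold across other columns, scaled to F1G4 day 2. *Lars2* was at 135.9 in the *T* KO of day 2, which derives from F1G4, above every value of the 129S/SvEvxC57BL/6 background. The other F1G4 columns had 4.78 to 11.97. *Tfpi* was at 53.03 in F1G4 ES cells and at 10.87 in the *Smad4* KO of day 2. *AI506816* was at 8.64 in the *T* KO of day 2, within 2-fold of the 10.09 to 16.84 of the 129S/SvEvxC57BL/6 background.

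Of the lower genes of both days described next, *Cyct* alone was over 2-fold apart between the F1G4 samples. *Pop4*, a protein subunit of RNase P and RNase MRP, was at 13.1 against 70.2 on day 1 and 11.9 against 70.4 and 67.5 on day 2. The nuclear RNA genes *Rprl3* and *Rprl2*, annotated as RNase P RNA, were also lower, *Rprl3* at 39.7 against 183 and 18.3 against 169 and 265. Both varied widely among the columns of F1G4 and its KO lines, scaled to F1G4 day 2. *Rprl3*, on chromosome 8, ranged from 110 to 1793 there and *Rprl2* from 9.52 to 228. *Cyct*, the testis cytochrome c, was at 4.21 against 33.0 and 1.05 against 33.0 and 10.9, *Dhrs7*, a short-chain dehydrogenase, at 5.53 against 23.2 and 4.35 against 28.9 and 24.5, and *Stard3nl*, a late endosome protein, at 7.20 against 26.7 and 7.33 against 32.2 and 29.3. *Akr1e1* was at 0.514 against 8.46 and 0.887 against 12.1 and 9.48. The log2 ratios of *Pop4*, *Rprl3*, *Cyct*, *Dhrs7*, *Stard3nl* and *Akr1e1* were −1.89 or lower on both days.

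Several of the most extreme ratios belonged to genes that share sequence with a copy, where reads can be assigned to either. *Amd1*, a polyamine synthesis enzyme, was at 0.0126 against 29.5 on day 1 (−11.20), yet its sum with *Amd2*, with which it shares 91.3% of its 31-base words, differed by −0.14. The pseudogene *Rpl34-ps1* was at 23.8 against 810 and its sum with *Rpl34* at −1.62 on day 1 and −1.65 on day 2. *Hist1h4n* (5.83 against 166) kept a ratio of −2.24 and −2.76 when summed with *Hist1h4m*, *Gnpda1* (3.21 against 16.7) came to −0.44 and −0.53 when summed with *Gm8615*, and the pseudogene *Gm5801* kept −1.61 and −1.44 with *Ube2j2*. *Gm5801* was high only in the F1G4 WT columns (63.5 to 76.0). The KO lines derived from F1G4 had 0.884 to 3.31, below the 12.4 to 13.9 of the 129S/SvEvxC57BL/6 background. *Gm1943* (16.3 against 0.833), whose words all occur in *Wdr70*, came to 0.73 and 0.63 with it, *Rps15a-ps6* to 0.38 and 0.16 with *Rps15a*, and *Rps27* to 0.59 and −0.10 with *Rps27rt*. *Snora24* and *AF357425* lie in host RNAs (*Snhg8*, *Rian*) and came to −0.27 and −0.61, and to 0.94 and 0.06, with them. *Snord87* (152 against 24.3 on day 1), the histone pseudogene *Hist1h2al* and *Snora23*, which was higher on day 1 alone, were also among the largest ratios. Levels of the genes in this paragraph are uncertain beyond their sums.

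Columns that neither ratio had used carried the comparison further. The 4 columns of the 129S/SvEvxC57BL/6 background (WT and *Smad4* KO, days 1 and 2) were set against the 10 columns of the F1G4 background (WT from ES cells to day 3 and the *Eomes*, *T* and double KO on days 2 and 3), all scaled to F1G4 day 2. Of 12087 genes, 189 lay above every F1G4 value (1.56%) and 304 below (2.52%), 493 in all (4.08%); the WT columns of days 1 and 2 are part of both comparisons. Of the 189 and 304, 23 and 61 were also called on both days in that direction. The ranges were over 2-fold apart in 42 genes, 6 higher and 36 lower.

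The genes with the widest gaps were at or near 0 in 1 background. *Gbp2b*, *Ubd*, *Pnp2* and *Apoa2* were listed at 0 in all 4 columns of the 129S/SvEvxC57BL/6 background, whereas in F1G4 the interferon-inducible GTPase gene *Gbp2b* ranged from 0.591 to 41.1, the ubiquitin-like modifier gene *Ubd* from 1.12 to 6.41, the purine phosphorylase gene *Pnp2* from 0.292 to 11.7 and the apolipoprotein gene *Apoa2* from 0.711 to 7.90. *Pnp2* shares 44.5% of its words with *Pnp*. *Trim12a*, a TRIM family gene, reached at most 0.0284 against 2.32 to 12.6, and *Olig2* at most 0.0726 against 2.50 to 12.7. The noncoding RNA *Gt(ROSA)26Sor*, transcribed from the locus most used for targeted transgenes in mouse, was at 0 to 1.13 against 4.89 to 12.1. In counts, *Olig2* had 0 fragments in the 129S/SvEvxC57BL/6 sample of day 1 and 1 in that of day 2, against 427 and 885 in F1G4.

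Genes with smaller but complete separation included some of those shown above for both days, but not *Tfpi* or *Lars2*. *Phf19* ranged from 9.38 to 18.5 against 0.508 to 2.89, *Kcnj3* from 11.8 to 18.7 against 1.16 to 7.47 and *Tmem237*, a gene of the ciliary transition zone, from 40.0 to 50.2 against 18.8 to 23.4. *Pop4* ranged from 11.8 to 13.2 against 69.0 to 105 and *Akr1e1* from 0.515 to 1.41 against 8.34 to 20.3. No value of 1 background fell within the range of the other in these genes, whatever the day or genotype.

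**Figure D4:**
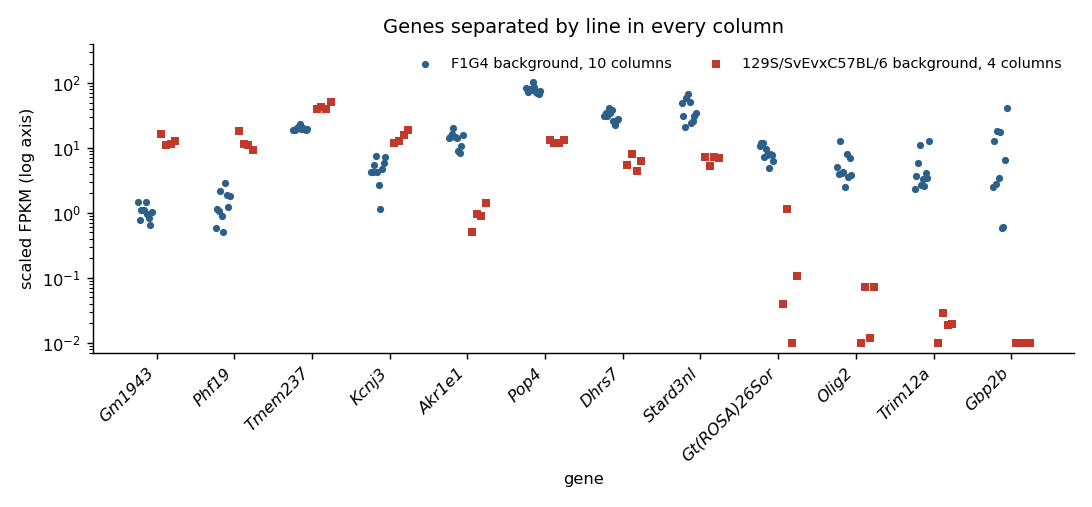
Scaled FPKM on a log axis of 12 genes in the 10 columns of the F1G4 background (blue circles) and the 4 columns of the 129S/SvEvxC57BL/6 background (red squares), with values below 0.01 drawn at 0.01. In each of the 12 genes the red squares lie wholly above (the first 4 genes) or wholly below the blue circles.

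Chromosome 8 stood apart from the other autosomes. Its median log2 ratio was −0.40 over 612 members on day 1 and −0.42 over 621 on day 2, while the medians of the other autosomes lay between −0.04 and 0.08 on day 1 and between −0.03 and 0.03 on day 2. On day 2, 90.5% of its members had a ratio below 0, against 48.7% elsewhere. Lower calls made up 9.80% of its members on day 1 and 9.82% on day 2, against 3.39% and 3.06% elsewhere. The shift ran along the whole chromosome: in 10 consecutive blocks of 60 genes the medians lay between −0.47 and −0.27 on day 1 and between −0.52 and −0.33 on day 2.

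The same chromosome also differed within the F1G4 background. Relative to F1G4 WT day 2, its median was −0.40 to −0.37 in the 4 columns of the 129S/SvEvxC57BL/6 background, −0.09 to 0.00 in the F1G4 WT columns of ES cells, day 1 and day 3, and 0.15 to 0.21 in the 6 columns of the KO lines derived from F1G4. Of the 304 genes below every F1G4 value 127 were on chromosome 8, which is 18.3% of its 694 genes against 1.55% elsewhere. Without this chromosome the lower calls numbered 345 on day 1, 308 on day 2 and 92 on both days, and 177 genes were below in all columns. The part of this chromosome in the list results was not tested.

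**Figure D5:**
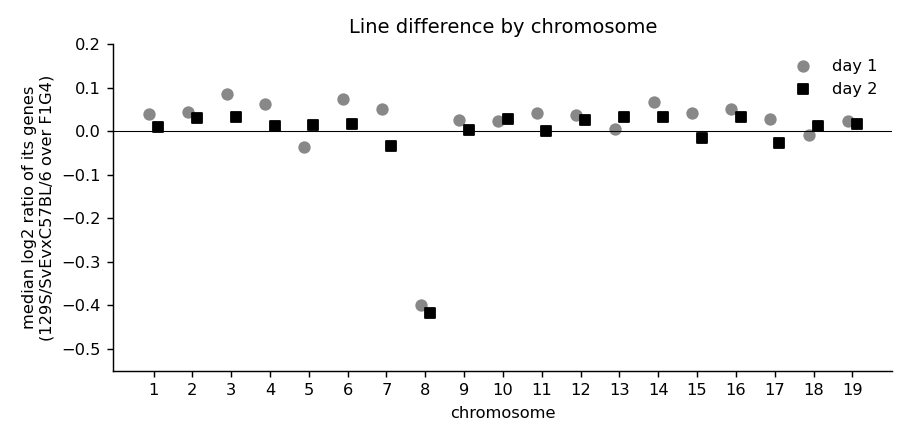
Median log2 ratio of the 129S/SvEvxC57BL/6 line to F1G4 over the members of each autosome, on day 1 (grey circles) and day 2 (black squares). Chromosome 8 lies at −0.40 and −0.42, and the other autosomes between −0.04 and 0.08.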

How the data were processed

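Libraries were strand-specific and made from 100 ng total RNA. The authors mapped reads to mm10 with HISAT2 2.1.0 and deposited FPKM values per gene from Cuffdiff 2.2.1 (cutadapt 2.9 and SAMtools 1.9 are also named in the submitters' processing notes), with samples of a group pooled and each table computed separately. Here the 129S/SvEvxC57BL/6 columns were multiplied by 1.04 (day 1, 9928 genes above FPKM 1 in both) and 1.01 (day 2, 10066 genes) to a median ratio of 1, and no pseudocount was added. Rows were matched to RefSeq by symbol (23889) or synonym (530), and 93 were not matched. Members and lists were chosen with earlier results of these data known.

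Genes named are the members of 21 lists and of gene classes, the 5 highest and 5 lowest ratios of each day, the 10 highest and lowest of both days, and all in opposite directions, at FPKM of at least 10 in the higher column and above 0; genes separated in every column were chosen after their values were seen. Copies were sought by shared 31-base words (20% or more), in place of protein identity. The F1G4 day 2 samples were solved by least squares over 4 tables (largest residual accepted 2e-05 of the value; within 0.0374% of the whole-number counts in 95% of 139 genes), chosen after the data were seen. The scripts were tested on simulated data, and Python 3.11.15, numpy 2.4.6, pandas 2.3.3 and scipy 1.17.1 were used. Authors' comparison columns (fold changes, p-values) were not used.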

Additional observations from a re-analysis of the deposited data

Results flagged for a closer look

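Genes called in opposite directions on the 2 days with an FPKM of at least 10 were looked at again because their line difference changed sign; the change was not tested. *Cyr61*, the matricellular YAP target, was at 18.2 against 6.47 in F1G4 on day 1 and at 17.2 against 60.5 and 34.9 in the F1G4 samples on day 2, a day 1 minus day 2 difference of 2.97 in the log2 ratio. Its level in the 129S/SvEvxC57BL/6 line was thus alike on both days. *Uap1l1*, related to UDP-N-acetylglucosamine pyrophosphorylase, was at 12.7 against 6.05 and then at 7.36 against 12.03 and 25.2, a difference of 2.41. The pseudogene *Gm5424* was at 56.4 against 18.5 and then at 7.82 against 35.6, a difference of 3.79; it shares 84.7% of its 31-base words with *Ass1*, and the sum of both came to log2 ratios of 1.08 and −0.35.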

How the results depend on the processing

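No test between the lines was run, since the 129S/SvEvxC57BL/6 line had 1 sample a day and the design held no test. No paired analysis was possible because the columns pool the F1G4 samples and the 129S/SvEvxC57BL/6 line had no numbered samples. The counts called on day 1, day 2 and both days were 1184, 528 and 175. They were 586, 212 and 102 with a pseudocount of 1; 2791, 2099 and 557 with no filter on FPKM; 538, 176 and 71 above FPKM 5; 357, 99 and 47 above FPKM 10; and 486, 203 and 79 with log2 ratios beyond 1.5. The pseudocount shrinks the ratios of low genes, and the other settings test more or fewer genes or use a stricter limit. Over 2-fold from both F1G4 samples on day 2 the count was 282, and with either F1G4 sample left out it ranged from 624 to 826. The 493 genes separated in all columns were 297 above FPKM 10 and 1055 without the ES cell and day 3 columns, where fewer columns have to separate. The other 28 of 47 counts, under no scaling, TPM, all chromosomes, a pseudocount of 0.1, protein-coding genes, subtracted GC and length trends and without chromosome 8, were within 1.5 times. The alternatives that drop chromosome 8 or an F1G4 sample or ask for both were chosen after seeing the data. Of 2376 values of named genes and lists under the alternatives none reversed a called direction and 60 moved by over 1.5-fold. Named calls were lost on day 1 in 37 of 151 with a pseudocount of 1, in 24 with the GC and length trends subtracted and in 17 in TPM, and on day 2 in 31 of 90 with a pseudocount of 1.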
